A study of Mus musculus with 15 samples.

Results

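Lysosomes are kept acidic by the vacuolar proton pump (V-ATPase) and digest proteins with cathepsins. The genes of both, with 10 genes of the lysosomal membrane, cholesterol export, glycolipid breakdown and autophagy, were followed here in mouse midbrain. They were taken by name: protein-coding genes whose symbols begin with Atp6v0 or Atp6v1, Atp6ap1 and Atp6ap2, cathepsins with a single letter after Cts, and Lamp1, Lamp2, Tfeb, Sqstm1, Map1lc3a, Map1lc3b, Hexa, Npc1, Npc2 and Scarb2. Of 24454 gene rows, 53 matched. The 40 with a mean of at least 0.5 CPM (counts scaled to a common library size) over the libraries were kept: 10 subunits of V1, 8 of V0 and its accessory proteins, 12 cathepsins and the 10 other genes. All 40 passed the filter on low counts, which left 15818 genes to test.

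RNA was sequenced from the midbrain of 5 groups of mice with 3 libraries each. The groups were Thy1-aSyn transgenic mice (TG) given 2 mg of carnosine through the nose, TG mice given 10 mM carnosine in the drinking water, TG controls, wild-type BDF1 mice (WT) given 2 mg of carnosine through the nose, and WT controls. Mice were 2 months old at the start, and treatment lasted 2 months. Carnosine is a dipeptide of beta-alanine and histidine. The Thy1-aSyn transgene is known to drive alpha-synuclein from the Thy1 promoter, which is active mainly in neurons, so other cells of the tissue are not its direct site. The labels do not say whether replicates are separate animals, and p-values measure only the spread between these libraries.

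The V-ATPase is a rotary machine. Its V1 part, in the cytosol, splits ATP, and its V0 part, in the membrane, carries protons into the lumen of lysosomes and, in neurons, of synaptic vesicles. Cathepsins are lysosomal proteases that mature and work at low pH, and cathepsin D is known as a protease of alpha-synuclein. Transcription of many of these genes is driven by TFEB, a factor that binds an E-box sequence repeated in lysosomal promoters.

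The E-box core CACGTG, which reads the same on both strands, was searched in promoters from RefSeq (GRCm38.p6, 250 bases before to 50 after each start). Of the 40 genes, 31 had a promoter there, and 9 of these (29.0%) held CACGTG, against 8.09% of 27025 genes and 7.15% of 32851 promoters. The longer form GTCACGTG, searched on both strands and containing the first motif, was in 5 of the 31 (16.1%), against 2.55% of genes and 2.25% of promoters. A match is a description and not a binding site. The 6 stretches below were chosen because they hold E-boxes in pump subunits, in proteases and in a membrane protein whose values follow. They lie at chr4:117887330-117887389 (minus strand), chr16:44139360-44139419 (minus), chr8:105566060-105566114 (minus), chr7:142387898-142387957 (minus), chr2:164833723-164833768 (plus) and chr8:13159091-13159160 (plus), in the order printed, 5′ to 3′ with the E-box core in capitals.
Atp6v0b: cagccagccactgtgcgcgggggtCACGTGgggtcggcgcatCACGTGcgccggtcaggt
Atp6v1a: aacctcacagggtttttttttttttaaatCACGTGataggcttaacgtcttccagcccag
Atp6v0d1: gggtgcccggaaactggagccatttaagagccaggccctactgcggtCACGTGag
Ctsd: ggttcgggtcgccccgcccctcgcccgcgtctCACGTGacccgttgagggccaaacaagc
Ctsa: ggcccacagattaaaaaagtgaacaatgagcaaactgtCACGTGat
Lamp1: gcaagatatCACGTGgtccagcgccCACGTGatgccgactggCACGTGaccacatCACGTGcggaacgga
Lamp1 held 4 E-boxes within this stretch, Atp6v0b 2, and the other 4 genes 1 each.

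The libraries held 13202199 to 60542423 counts. Of 8 markers of midbrain dopamine neurons, Pitx3 was at 0 in TG intranasal 3, TG control 3 and WT intranasal 1, and Slc6a3, the dopamine transporter, stood at 0.474, 1.45 and 0.692 CPM there, against 3.20 to 39.1 CPM in the other 12 libraries. The summed level of the 8 was 202 to 458 CPM, of which Aldh1a1, a gene other cells also express, made up 146.9 to 348 CPM. The most abundant gene row without a name took 2.31% to 6.22% of the counts in all 6 WT libraries and TG control 1 and 2, and 0.122% to 0.320% in TG control 3 and all 6 carnosine-treated TG libraries. In TG mice, treatment and this split of the libraries cannot be fully told apart. Values from a fit with a term for it are given with each comparison whose medians or calls it moves. Only the TG controls fall on both sides of the split. In that fit the treated TG libraries, also in the difference between genotypes, are therefore set against TG control 3 alone. The library TG control 2 had the lowest value of all 15 libraries for 15 of the 40 genes, and WT control 1 the highest for 11.

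Of the 13 matches under 0.5 CPM, 7 were pump genes and 6 cathepsins. Isoforms known from kidney and bone, Atp6v0a4, Atp6v0d2, Atp6v1b1 and Atp6v1g3, averaged 0.242, 0.0249, 0.0431 and 0.0269 CPM, and Ctsj, Ctsm, Ctsq and Ctsr had 0 counts in every library. The lowest gene kept was Ctsg at 0.763 CPM and the highest left out Ctse at 0.401 CPM. Atp6v0c, which encodes the proteolipid of the membrane ring, also fell outside, with 30 counts in all 15 libraries together (0.105 CPM).

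V1 subunits were among the most abundant of these transcripts. Per kilobase of transcript, Atp6v1g2 and Atp6v1e1 averaged 269.5 and 262 CPM, below only Map1lc3a at 286 CPM per kilobase. Ctsd followed at 221 CPM per kilobase and Atp6v0b at 214. The remaining values are CPM without division by length.

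The catalytic head of V1 is built from the A and B subunits. Atp6v1a, the subunit that splits ATP, had 471, 469 and 363 CPM in TG intranasal, 390.1, 395 and 450.0 in TG drinking water, 378, 448 and 374 in TG control, 403, 438 and 395 in WT intranasal and 318, 412 and 386 in WT control. Atp6v1b2, the B subunit of brain, had 628, 644 and 532 CPM in TG intranasal, 526, 562 and 593 in TG drinking water, 522, 477 and 522 in TG control, 543, 511 and 497 in WT intranasal and 539.8, 617 and 513 in WT control. For Atp6v1a the groups overlapped in every comparison, and for Atp6v1b2 all TG intranasal and TG drinking water libraries lay above all TG controls.

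Subunits of the rotor and the stalks varied more. Atp6v1f, on the central rotor, had 177, 148 and 177 CPM in TG intranasal, 151, 113 and 108 in TG drinking water, 141, 84.3 and 130.4 in TG control, 139.5, 102 and 96.1 in WT intranasal and 244, 171 and 169.8 in WT control. TG intranasal libraries lay above all TG controls, and WT intranasal and TG control libraries lay below all WT controls. Atp6v1d, the rotor shaft, had 211, 222 and 215 CPM in TG intranasal, 211, 197 and 190.3 in TG drinking water, 194, 137 and 192 in TG control, 184, 166 and 141 in WT intranasal and 255, 207 and 202 in WT control. The same separations held for it.

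Among the stalk genes, Atp6v1g2, the neuronal G subunit, had 544, 449 and 437 CPM in TG intranasal, 380.4, 342 and 388 in TG drinking water, 383, 314 and 417 in TG control, 392.2, 339 and 326 in WT intranasal and 526, 521 and 419 in WT control. It lay higher in every TG intranasal library than in any TG drinking water or TG control library, and lower in WT intranasal and TG control than in WT control. The broadly expressed G subunit Atp6v1g1 had 138, 145 and 193 CPM in TG intranasal, 168, 144 and 139.6 in TG drinking water, 137, 80.6 and 123 in TG control, 132, 85.1 and 67.3 in WT intranasal and 178, 100.6 and 156 in WT control. Its TG intranasal and TG drinking water libraries lay above the TG controls, while its WT intranasal and WT control libraries overlapped. Atp6v1e1, of the E subunit that pairs with G, had 393, 386 and 406 CPM in TG intranasal, 391, 325 and 323 in TG drinking water, 335, 244 and 355 in TG control, 339, 269.9 and 246 in WT intranasal and 435, 345 and 359.8 in WT control. TG intranasal lay above TG control, and WT intranasal below WT control.

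Of the other V1 genes, Atp6v1h, a subunit that regulates the pump, had 97.6 to 150.4 CPM over the 15 libraries and Atp6v1c1, which joins V1 to V0, 155 to 228 CPM. The isoform Atp6v1c2 stood at 0.210 to 2.50 CPM. Across the 15 libraries the 45 pairs of V1 genes had a median Pearson correlation of log2 CPM of 0.62, against 0.24 for V0, 0.28 for cathepsins and 0.05 for the other 10 genes; all pairs share the libraries and their scaling.

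In V0, Atp6v0b, a proteolipid of the membrane ring, had 264, 168 and 187 CPM in TG intranasal, 226, 177 and 157 in TG drinking water, 199, 131 and 185 in TG control, 196, 163 and 146 in WT intranasal and 459.6, 317 and 231 in WT control. All 3 WT controls lay above every WT intranasal and TG control library. Atp6v0a1, an a subunit abundant in neurons that helps to form the proton path, had 314, 281 and 213 CPM in TG intranasal, 268, 331 and 299 in TG drinking water, 245, 352 and 308 in TG control, 297, 344 and 346 in WT intranasal and 222, 408 and 282 in WT control. Its groups overlapped in every comparison. Atp6v0a2, another a subunit, ranged from 67.6 to 102 CPM.

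The small and linking subunits lay between these patterns. Atp6v0d1, which links ring and rotor, had 285, 249.9 and 231 CPM in TG intranasal, 250.3, 219.7 and 237 in TG drinking water, 251, 188 and 249 in TG control, 254, 211 and 210.0 in WT intranasal and 310.1, 324 and 269 in WT control. It lay below WT control in every WT intranasal and TG control library. Atp6v0e2 had 426, 323 and 347 CPM in TG intranasal, 326, 305 and 301 in TG drinking water, 373, 270.1 and 342 in TG control, 348, 316 and 288 in WT intranasal and 444, 464 and 359.5 in WT control, with WT intranasal below WT control. Its relative Atp6v0e ranged from 26.7 to 60.98 CPM.

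Accessory proteins help to assemble and sort the pump. Atp6ap1 had 298, 237 and 219 CPM in TG intranasal, 275, 301 and 274 in TG drinking water, 226, 278 and 223 in TG control, 279.8, 275 and 279 in WT intranasal and 292, 353 and 276 in WT control. Its groups overlapped in every comparison. Atp6ap2, also known as the prorenin receptor, had 198, 161 and 159.8 CPM in TG intranasal, 192, 214 and 191 in TG drinking water, 148, 134 and 141 in TG control, 160.0, 146 and 128 in WT intranasal and 162, 150.2 and 168 in WT control. All TG drinking water and TG intranasal libraries lay above all TG controls.

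Among proteases, the aspartic protease Ctsd had 569, 427 and 516 CPM in TG intranasal, 509, 531 and 433 in TG drinking water, 486, 471 and 423 in TG control, 568, 386 and 408 in WT intranasal and 416, 426 and 492 in WT control. The cysteine protease Ctsb had 637, 509.6 and 484 CPM in TG intranasal, 575, 575 and 549.5 in TG drinking water, 463, 501 and 493 in TG control, 539.5, 498 and 537 in WT intranasal and 523, 543 and 488 in WT control. For Ctsb all TG drinking water libraries lay above all TG controls, but no comparison reached an unadjusted p under 0.05 for either gene.

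Ctss, a cysteine protease known from microglia and other phagocytes, had 205, 167 and 248 CPM in TG intranasal, 206, 164 and 165 in TG drinking water, 202, 156 and 162 in TG control, 197, 150.3 and 151 in WT intranasal and 106, 101.3 and 166 in WT control. WT control 1 and 2 were the lowest libraries, but WT control 3 lay among those of other groups. Ctsl, a cysteine protease with a broad range of tissues, had 111, 109 and 104 CPM in TG intranasal, 133, 118 and 106 in TG drinking water, 110.2, 104 and 95.0 in TG control, 114, 95.0 and 96.3 in WT intranasal and 108, 87.8 and 107 in WT control. Ctsa, a serine carboxypeptidase that also protects other lysosomal enzymes, had 104, 66.7 and 72.4 CPM in TG intranasal, 81.7, 91.9 and 82.2 in TG drinking water, 69.2, 93.0 and 72.6 in TG control, 91.7, 72.1 and 79.4 in WT intranasal and 87.0, 74.2 and 73.1 in WT control. The groups of Ctsl and Ctsa overlapped.

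The less abundant proteases were Ctsf at 47.4 to 72.2 CPM, Ctsz at 38.5 to 61.7 CPM, Ctso at 42.1 to 65.1 CPM, Ctsh at 15.1 to 31.2 CPM, Ctsc at 10.03 to 22.7 CPM and Ctsk at 1.05 to 5.56 CPM. Ctsg, a protease of neutrophil granules, had 269 of its 401 counts in WT intranasal 2 alone. There it stood at 4.40 CPM beside Mpo at 9.72 and Elane at 7.74 CPM, both genes of the same granules, and no other library exceeded 1.52 CPM of Ctsg.

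Among the other 10 genes, the membrane glycoprotein Lamp1 had 492, 405 and 441 CPM in TG intranasal, 460.3, 522 and 429 in TG drinking water, 427, 469 and 365 in TG control, 449, 430.3 and 455 in WT intranasal and 463, 423 and 454 in WT control. Its groups overlapped. Lamp2, its relative, also needed for autophagy, had 81.1, 76.3 and 94.3 CPM in TG intranasal, 112, 96.6 and 96.2 in TG drinking water, 71.9, 102 and 68.9 in TG control, 89.5, 99.98 and 98.6 in WT intranasal and 65.9, 59.1 and 89.3 in WT control. WT intranasal libraries lay above WT controls.

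Scarb2, an integral protein of the lysosomal membrane, had 120.4, 113 and 119 CPM in TG intranasal, 154, 164 and 148 in TG drinking water, 119.6, 202 and 109 in TG control, 136, 172 and 185 in WT intranasal and 85.1, 107 and 123 in WT control. TG control 2 was the highest of all 15 libraries. Npc1, which exports cholesterol from the lysosome membrane, had 45.5, 34.5 and 45.9 CPM in TG intranasal, 71.1, 81.2 and 62.5 in TG drinking water, 34.6, 72.8 and 32.1 in TG control, 48.1, 46.1 and 58.3 in WT intranasal and 32.9, 28.5 and 36.1 in WT control. TG control 2 again lay far above the other TG controls, and TG drinking water libraries lay above all TG intranasal ones. Its soluble partner Npc2 had 173, 150.1 and 191 CPM in TG intranasal, 146, 141 and 139 in TG drinking water, 178, 118 and 144 in TG control, 162, 123 and 130.1 in WT intranasal and 191, 148 and 170.4 in WT control, with overlap in each comparison of treated and control libraries.

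Of the autophagy genes, Map1lc3a, which encodes an LC3 protein of the autophagosome membrane, had 349.5, 271 and 283 CPM in TG intranasal, 295, 209 and 209.8 in TG drinking water, 301, 187 and 285 in TG control, 302, 224 and 204 in WT intranasal and 753, 470.2 and 430.2 in WT control. Every WT control library lay above every other library of the study. Map1lc3b, the related gene, had 312, 303 and 306 CPM in TG intranasal, 279, 261 and 267 in TG drinking water, 299, 238 and 283 in TG control, 274, 261 and 249 in WT intranasal and 366, 296 and 305 in WT control. WT intranasal libraries lay below WT controls, and TG intranasal libraries above TG controls. The cargo receptor gene Sqstm1 had 466, 459 and 423 CPM in TG intranasal, 419, 404 and 421 in TG drinking water, 406, 366 and 409 in TG control, 459, 378 and 375 in WT intranasal and 471, 516 and 409 in WT control. TG intranasal libraries lay above all TG drinking water and TG control libraries.

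Hexa, the alpha subunit of beta-hexosaminidase, ranged from 54.6 to 75.7 CPM and Tfeb from 13.1 to 20.1 CPM. For neither did a comparison reach an unadjusted p under 0.05.

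**Figure D1:**
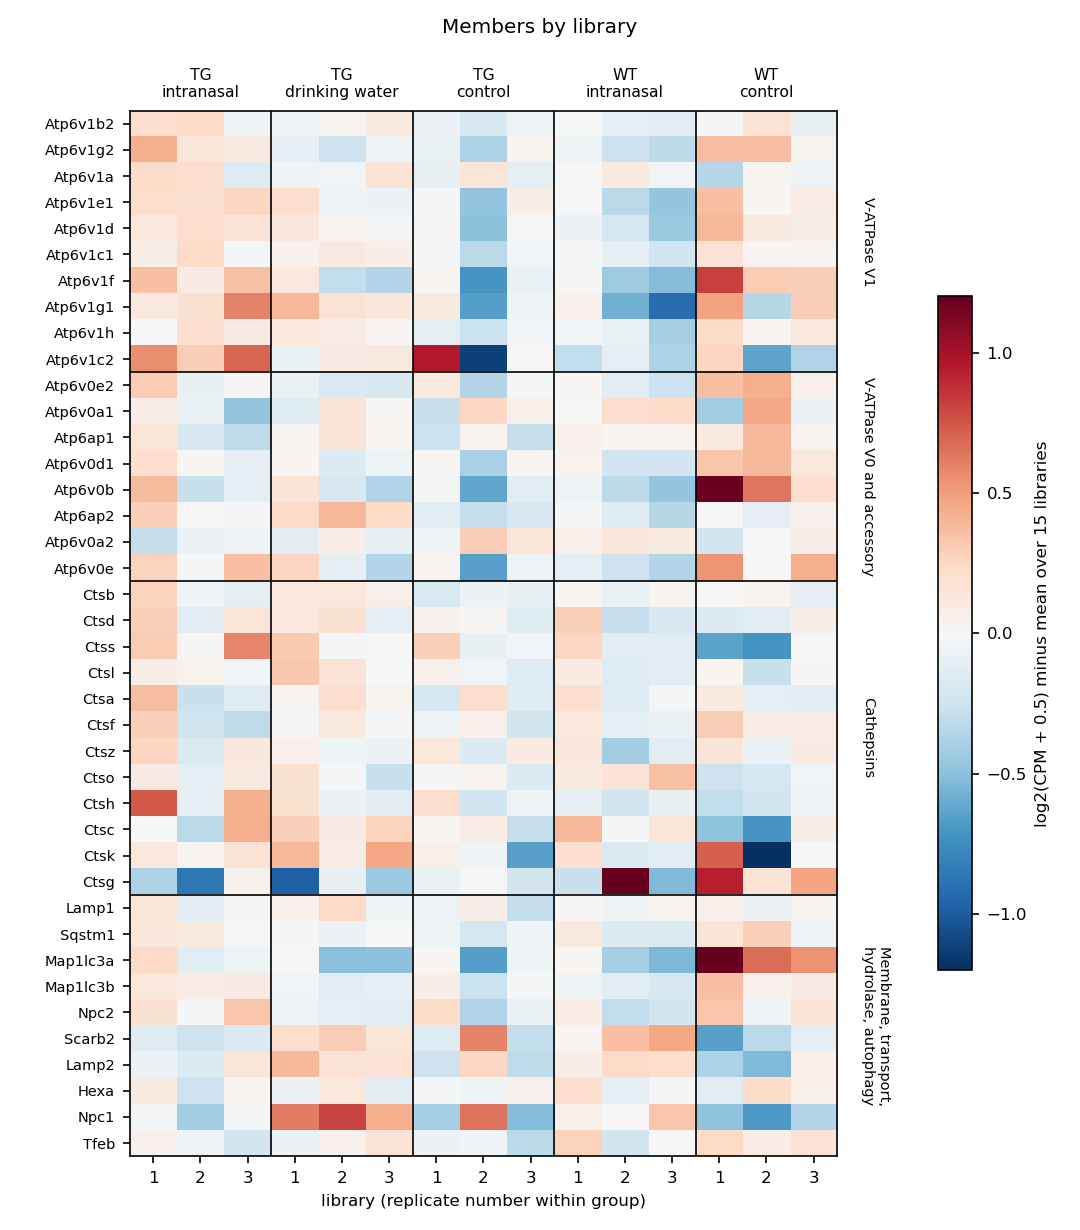
Colour shows log2(CPM + 0.5) minus the gene's mean over the 15 libraries, for 40 genes (rows, by role) and 15 libraries (columns, by group); colours saturate at 1.2 on either side. TG control 2 is low and WT control 1 high for many pump genes.

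**Figure D2:**
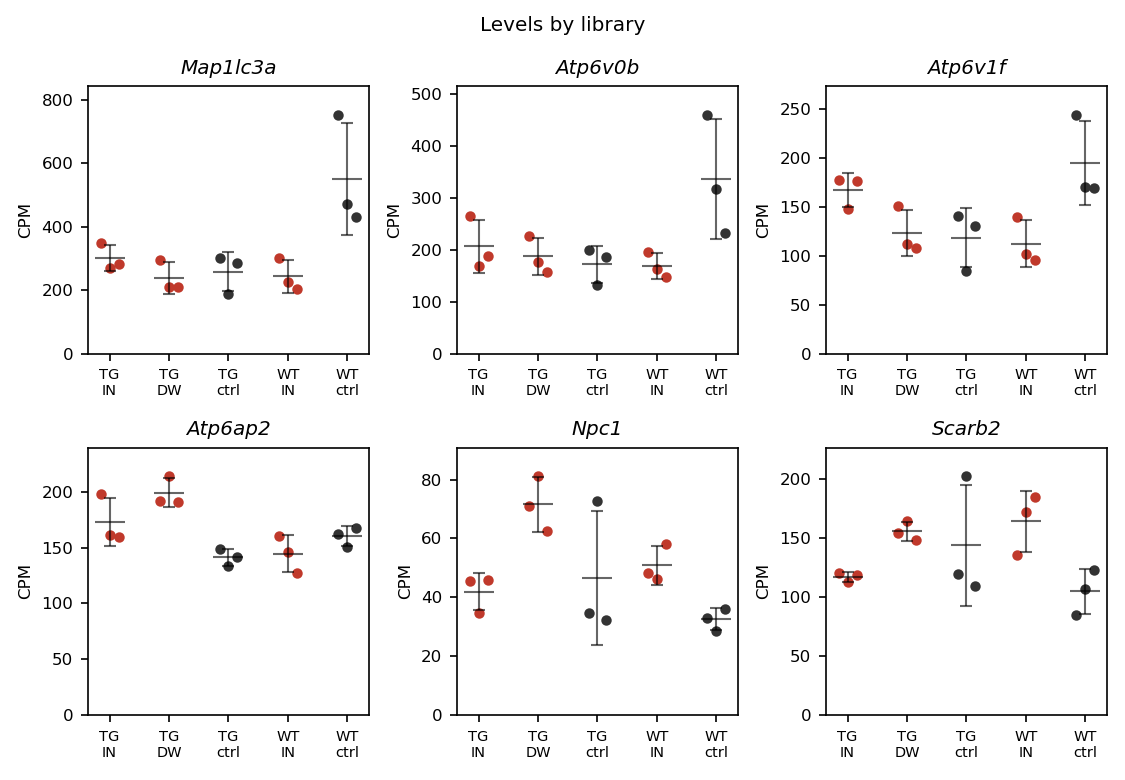
CPM of 6 genes in each library (points; red for carnosine, dark for control) with group mean and SD (n = 3; IN, intranasal; DW, drinking water; ctrl, control). Map1lc3a and Atp6v0b stand highest in WT control, and Atp6ap2 in TG drinking water.

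In WT mice given carnosine through the nose, Map1lc3a fell to 243 ± 51.7 CPM in WT intranasal, against 551 ± 176 CPM in WT control (SD, n = 3 each), a log2 fold change of -1.18 (SE 0.24, edgeR adjusted p = 0.0467). It was the 1 gene of the 40 called at an adjusted p under 0.05, beside 1.01% of all genes tested. Of 18 pump genes 15 were lower, the V1 genes with a median log2 fold change of -0.35 and the V0 and accessory genes with -0.28, beside 0.02 for all genes. Cathepsins had a median of 0.04 and the other 10 genes of -0.08. The split of the libraries does not divide WT intranasal from WT control, so a term for it cannot test this comparison. In the fit with that term Map1lc3a stayed at -1.18. Its edgeR adjusted p was 0.0584 and 0 of all genes were called, as the term bears here only on the spread fitted over all 15 libraries.

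Markers of other cells moved beside these values. Cerebellar neuron markers were higher in 7 of 8, with a median of 1.02 and a sum of 178 to 262 CPM in WT intranasal, against 129 to 203.5 CPM in WT control, and astrocyte markers in 7 of 8, with a median of 0.40 and a sum of 5777 to 8573 CPM, against 4249 to 6411 CPM. Endothelial markers were higher in 6 of 8 (median 0.52) and neutrophil markers in 7 of 7 (median 0.54). Dopamine neuron and choroid plexus markers were higher in 7 of 8 each (medians 0.42 and 0.35), and oligodendrocyte markers lower in 7 of 8 (median -0.11). Pituitary markers were lower in 5 of 5 tested, with a median of -3.65 and a sum of 4.98 to 60.8 CPM in WT intranasal and 45.2 to 853 CPM in WT control, the highest value being that of WT control 1. Without both pituitary-rich libraries, WT control 1 and TG control 1, the V1 median was -0.28 and Map1lc3a was at -0.89 (edgeR adjusted p = 0.186). The cerebellar genes Gabra6 and Pcp2 were at 0 in WT intranasal 1 and WT control 2, while no astrocyte or endothelial marker was at 0 in any library. None of these markers was called. Leaving out whole libraries cannot single out pituitary tissue, and the part of each of these lists was not tested.

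At an unadjusted p under 0.05, 5 of the 40 genes were higher and 12 lower, beside 11.7% and 12.3% of all genes. The libraries of the groups did not overlap for 4 genes that were higher and 12 that were lower, beside 13.2% and 13.4% of all genes. The lower ones that missed the adjusted threshold included Atp6v0b at -0.996 (SE 0.25, edgeR adjusted p = 0.0557) and Atp6v1f at -0.79 (SE 0.22, edgeR adjusted p = 0.0637). The higher ones were Scarb2 at 0.64 (SE 0.21), Npc1 at 0.64 (SE 0.25), Lamp2 at 0.43 (SE 0.18), Ctso at 0.38 (SE 0.14) and Ctsc at 0.54 (SE 0.23). In bulk tissue, fewer cells of a type and less RNA per cell cannot be told apart. DESeq2 called 6 of the 38 genes to which it gave an adjusted p, beside 10.8% of all genes. Without WT control 1 Map1lc3a was at -0.89 (edgeR adjusted p = 0.241) and none of the 40 was called, beside 0 of all genes. Map1lc3a also missed the threshold without WT intranasal 2 or 3, TG control 3, TG intranasal 1 or 2, or TG drinking water 2 or 3, with an edgeR adjusted p of 0.0531 to 0.277.

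The effect of the transgene without carnosine was read against the same WT controls. No gene of the 40 was called by edgeR in TG control against WT control, beside 0.0126% of all genes, and DESeq2 called 3 of 38, beside 3.19% of all genes. Map1lc3a averaged 258 ± 62.1 CPM in TG control and 551 ± 176 CPM in WT control (SD, n = 3 each), a log2 fold change of -1.10 (SE 0.24, edgeR adjusted p = 0.125). Atp6v0b was at -0.97 (SE 0.25, edgeR adjusted p = 0.130) and Atp6v1f at -0.72 (SE 0.22, edgeR adjusted p = 0.151). At an unadjusted p under 0.05, 2 genes were higher and 9 lower, beside 8.8% and 9.27% of all genes. Libraries did not overlap for 0 genes that were higher and 12 that were lower, beside 7.37% and 9.07% of all genes.

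Of the 18 pump genes 15 were lower in TG control, with medians of -0.27 for V1 and -0.35 for V0 and accessory genes, beside 0.02 for all genes. The V1 median was -0.15 without TG control 2 and -0.18 without WT control 1. The 2 higher genes were Scarb2 at 0.45 (SE 0.21) and Ctss at 0.48 (SE 0.21). Beside Ctss, TG control had the higher value for 10 of 12 microglia markers, their median being 0.28, and their summed level was 689 to 1029 CPM in TG control and 580 to 793 CPM in WT control. No marker of that list was at 0 in any library, and the part of microglia in the Ctss value was not tested. Without TG control 2, Scarb2 was at 0.12. Astrocyte markers were higher in 7 of 8 (median 0.27) and choroid plexus markers in 7 of 8 (median 0.62), while neutrophil markers were lower in 7 of 7 (median -1.40), oligodendrocyte markers in 7 of 8 (median -0.17) and pituitary markers in 5 of 5 (median -0.49). None of these was called. Without both pituitary-rich libraries the V1 median was -0.23, and the part of each of these lists was not tested.

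In TG mice, carnosine through the nose went with higher values of every V1 gene. All 10 were higher, with log2 fold changes of 0.12 to 0.50 and a median of 0.32, beside -0.003 for all genes. Without TG control 2, Atp6v1c2, the V1 gene with the fewest counts, was at -0.02. None of the 40 genes was called by edgeR, beside 0.00632% of all genes, and DESeq2 called 0 of 40, beside 0.12% of all genes. At an unadjusted p under 0.05, 3 genes were higher and 0 lower, beside 3.82% and 5.92% of all genes. Libraries did not overlap for 10 genes that were higher and 1 that was lower, beside 5.95% and 5.86% of all genes. The 3 genes higher at an unadjusted p under 0.05 were Atp6v1f at 0.50 (SE 0.21), Atp6v1g2 at 0.36 (SE 0.16) and Atp6ap2 at 0.29 (SE 0.13).

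The summed V1 level was 2653 to 2896 CPM in TG intranasal, against 2047 to 2430 CPM in TG control, with no overlap. V0 and accessory genes had a median log2 fold change of 0.15, cathepsins of 0.10 and the other 10 genes of 0.08. Without TG control 2 the V1 median was 0.20 and the V0 median 0.07, and the V0 median was 0.04 without TG intranasal 1 and 0.24 without TG control 1. With a term for the split of the libraries, where TG control 3 alone serves as the control, the V1 median was 0.20. That of cathepsins was then 0.19 and that of the other 10 genes 0.19. Oligodendrocyte markers were higher in 8 of 8, with a median of 0.30, and astrocyte markers lower in 7 of 8, with a median of -0.44. Choroid plexus markers were lower in 6 of 8 (median -0.37) and pituitary markers in 4 of 5 (median -1.84). The pituitary markers summed to 23.2 to 95.2 CPM in TG intranasal and to 682, 13.85 and 4.35 CPM in TG control 1, 2 and 3. Only TG control 1 thus lay above the treated libraries. Without both pituitary-rich libraries the V1 median was 0.39, and the part of each of these lists was not tested.

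In TG mice given carnosine in the drinking water, Atp6ap2 averaged 199 ± 13 CPM in TG drinking water and 141 ± 7.25 CPM in TG control (SD, n = 3 each), a log2 fold change of 0.49 (SE 0.13, edgeR adjusted p = 0.253). Npc1 was at 0.62 (SE 0.24, edgeR adjusted p = 0.493). TG control 2 lay inside the range of the treated libraries for Npc1, and without it the log2 fold change was 1.10 (SE 0.18, edgeR adjusted p = 0.0525). These were the 2 genes higher at an unadjusted p under 0.05, with 0 lower, beside 2.71% and 5.36% of all genes. None of the 40 was called by edgeR, beside 0.00632% of all genes, and DESeq2 called 1 of 34, Atp6ap2, beside 3.68% of all genes. Libraries did not overlap for 8 genes that were higher and 0 that were lower, beside 6.44% and 8.22% of all genes.

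The medians for drinking water were 0.15 for V1, 0.08 for V0 and accessory genes, 0.09 for cathepsins and 0.095 for the other 10 genes, against 0.005 for all genes. Without TG control 2 the V1 median was 0.07 and the V0 median -0.04, and without TG drinking water 1 the V0 median was -0.02. Without TG control 1, TG control 3, TG drinking water 2 or TG drinking water 3 the V0 median was 0.12 to 0.14. With a term for the split of the libraries, where TG control 3 alone serves as the control, the V1 median was 0.08 and the V0 median -0.01. Those of cathepsins and the other 10 genes were then 0.21 and 0.19. Beside them, choroid plexus markers were higher in 8 of 8, with a median of 0.62 and a sum of 1261 to 2080 CPM in TG drinking water, against 388 to 1587 CPM in TG control. Oligodendrocyte markers were higher in 8 of 8 with a median of 0.46, and astrocyte markers lower in 8 of 8, with a median of -0.34 and a sum of 4792 to 5334 CPM in TG drinking water, against 5756 to 10530 CPM in TG control. Neutrophil markers were higher in 7 of 7 (median 2.74), and dopamine neuron, cerebellar neuron and endothelial markers in 7 of 8 each (medians 0.90, 0.91 and 0.20). Pituitary markers were lower in 4 of 5 (median -1.80). They summed to 29.95 to 163.5 CPM in TG drinking water and to 682, 13.85 and 4.35 CPM in TG control 1, 2 and 3. Only TG control 1 thus lay above the treated libraries. Without both pituitary-rich libraries the V1 median was 0.21, and the part of each of these lists was not tested.

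The routes were set side by side in TG mice. Npc1 averaged 42.0 ± 6.43 CPM in TG intranasal and 71.6 ± 9.34 CPM in TG drinking water (SD, n = 3 each), a log2 fold change of -0.77 (SE 0.24, edgeR adjusted p = 0.553), with no overlap. Atp6v1g2 was at 0.37 (SE 0.16), also with no overlap. These were the 1 gene higher and the 1 lower at an unadjusted p under 0.05 beside these percentages of all genes: 2.78% higher and 4.48% lower. None of the 40 was called by edgeR, beside 0.0% of all genes, and DESeq2 called 0 of 40, beside 0.152% of all genes. Libraries did not overlap for 5 genes that were higher and 3 that were lower, beside 7.63% and 9.14% of all genes. All 10 V1 genes were higher in TG intranasal, with a median of 0.11, beside 0.02 for all genes, and the median was 0.18 without TG intranasal 3. Choroid plexus markers were lower in 8 of 8 (median -0.85), neutrophil markers in 7 of 7 (median -2.67), and dopamine neuron and cerebellar neuron markers in 7 of 8 each (medians -0.56 and -0.78), while microglia markers were higher in 10 of 12 (median 0.28); their part was not tested.

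The difference between genotypes in the response to the nasal route was tested as the log2 fold change in TG minus that in WT. Atp6v1f was at 1.29 (SE 0.30, edgeR adjusted p = 0.0487) and Map1lc3a at 1.41 (SE 0.34, edgeR adjusted p = 0.0487). They were the 2 genes called of the 40, beside 2.32% of all genes, and DESeq2 called 12 of 38, beside 17.7% of all genes. Atp6v1g2 at 0.83 (SE 0.22, edgeR adjusted p = 0.0504) and Atp6v0b at 1.26 (SE 0.35, edgeR adjusted p = 0.0505) missed the threshold. At an unadjusted p under 0.05, 15 genes were higher and 3 lower, beside 13.9% and 14.7% of all genes. The 3 lower were Scarb2 at -0.94 (SE 0.29), Npc1 at -0.79 (SE 0.35) and Atp6v0a2 at -0.42 (SE 0.19). In 6 genes every TG intranasal library lay above every TG control library and every WT intranasal library below every WT control library, beside 1.41% of all genes, and the opposite held for 0 of the 40, beside 1.14% of all genes.

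The medians of this difference were 0.64 for V1, 0.50 for V0 and accessory genes, 0.08 for cathepsins and 0.15 for the other 10 genes, beside -0.05 for all genes. Astrocyte markers were lower in 6 of 8, with a median of -0.87 and 1 called, and cerebellar neuron, choroid plexus and endothelial markers in 7, 7 and 6 of 8 (medians -1.12, -0.67 and -0.79). Oligodendrocyte markers were higher in 8 of 8 (median 0.38) and pituitary markers in 5 of 5 (median 1.60). Without both pituitary-rich libraries the V1 median was 0.71 and both genes were called, and the part of each of these lists was not tested. This difference uses both control groups, and the values above share the libraries of TG control or of WT control with it. Without WT control 1 Atp6v1f was at 1.09 and Map1lc3a at 1.11 (edgeR adjusted p = 0.135 for both), and with a term for the split of the libraries the adjusted p was 0.296 for both, and the median of the other 10 genes was 0.32. With 1 library left out, both stayed called only without WT control 2, WT control 3, WT intranasal 1 or TG control 1; without any other single library the edgeR adjusted p was 0.0518 to 0.141.

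**Figure D3:**
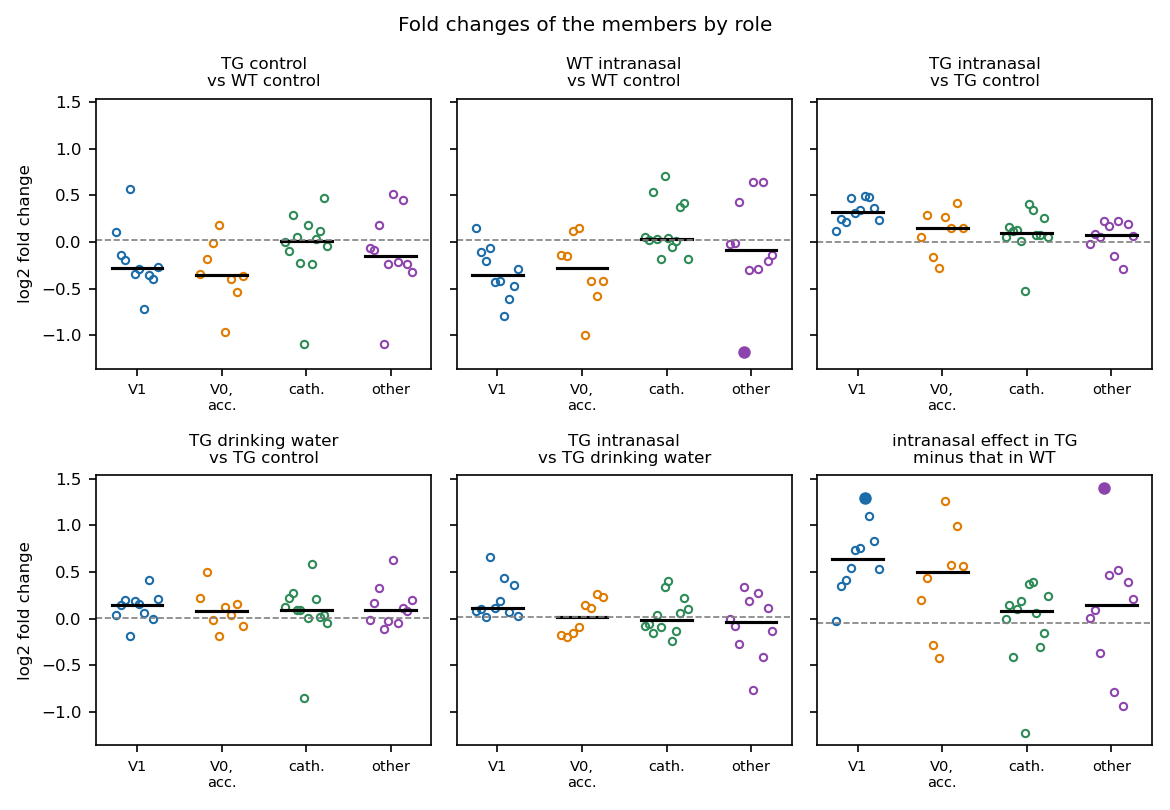
Log2 fold change of each gene (points) by role in the 6 comparisons, with the median of each role (black bar) and of all genes tested (dashed line); filled points were called at an adjusted p under 0.05. V1 genes lie mostly below 0 in WT intranasal against WT control and above 0 in TG intranasal against TG control.

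Fold changes went with transcript length. In WT intranasal against WT control the rank correlation of fold change and length was 0.546 over the 40 genes and 0.827 over the 18 pump genes, and 0.603 over 15081 genes with a length. In TG intranasal against TG control it was -0.53, -0.75 and -0.487, for the difference between genotypes -0.60, -0.899 and -0.628, and in TG control against WT control 0.56, 0.746 and 0.575. These are correlations across genes that share the same libraries, given as a description. Genes under 1500 bases (9 of the 40) had a median log2 fold change of -0.58 in WT intranasal against WT control, the 19 of 1500 to 3000 bases -0.14, and the 12 longer ones 0.15.

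Scaling each library for length and GC content brought the medians of the pump genes closer to 0 in every comparison but TG intranasal against TG drinking water. The V1 median was then -0.09 in WT intranasal against WT control, 0.17 in TG intranasal against TG control and 0.21 for the difference between genotypes, and the V0 medians -0.07, 0.003 and 0.09. In TG control against WT control the V1 median was then -0.08 and the V0 median -0.10. In TG drinking water against TG control they were 0.06 and 0.04. For TG intranasal against TG drinking water the V1 median was 0.12, against 0.11 without the scaling, with 7 of 10 V1 genes then higher and 3 lower. The V0 median there was -0.05, against 0.01 without the scaling. The cathepsin median moved away from 0, to 0.25 in WT intranasal against WT control, to 0.14 in TG control against WT control and to -0.23 for the difference between genotypes, where it was 0.08 without the scaling and where 10 of 12 cathepsins were then lower. The median of the other 10 genes turned to 0.10 in WT intranasal against WT control and to -0.04 for the difference between genotypes. Atp6v1f was at 0.12 for the difference between genotypes (edgeR adjusted p = 0.709), and Map1lc3a at 0.63 (edgeR adjusted p = 0.110). Map1lc3a in WT intranasal against WT control was at -0.53 (edgeR adjusted p = 0.0867). None of the 40 genes was called in any of the 6 comparisons, beside at most 2 of all 15818 genes tested in any of them. Ctss moved the other way, to 0.75 (SE 0.17, edgeR adjusted p = 0.0867) in WT intranasal against WT control, against 0.42 (SE 0.20) without the scaling.

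**Figure D4:**
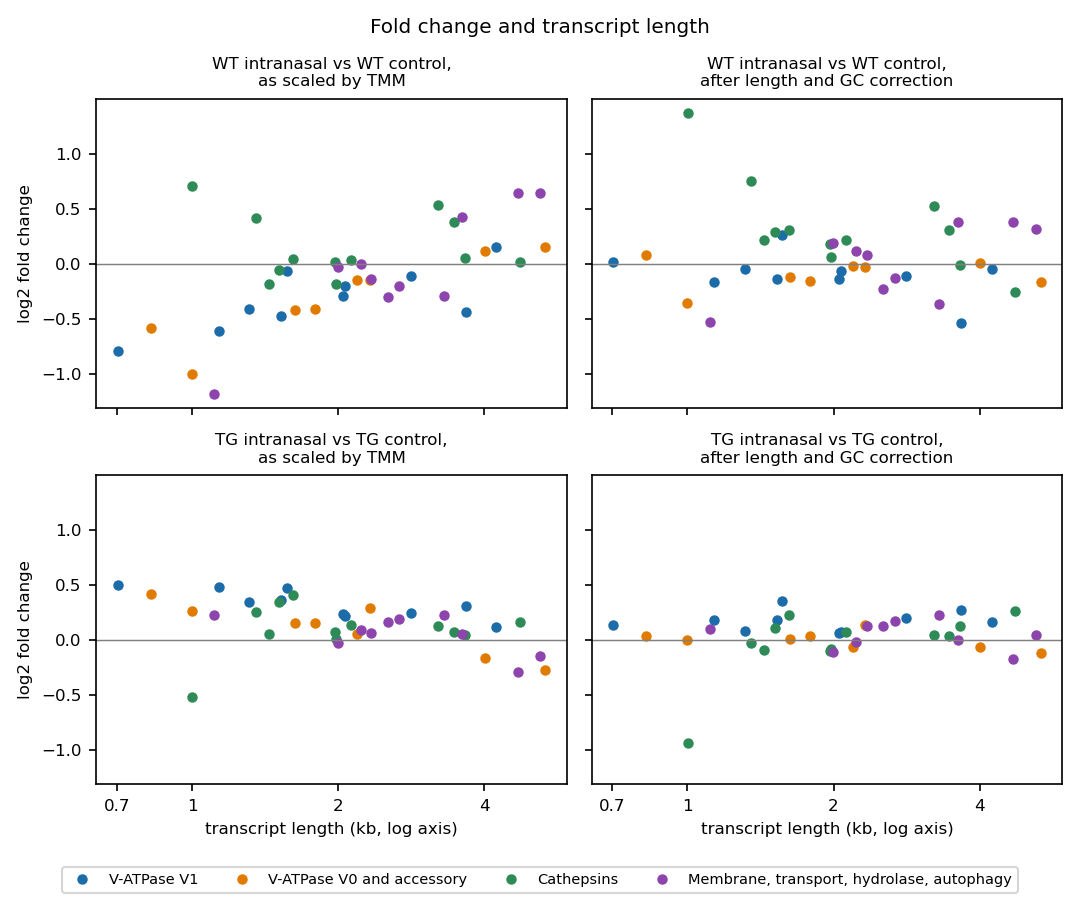
Log2 fold change (vertical) against transcript length (horizontal, log axis) for the 40 genes, before (left) and after (right) scaling for length and GC content. Among the pump genes, short ones lie lowest in WT intranasal against WT control (top left) and highest in TG intranasal against TG control (bottom left). The slope is small on the right.

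Other lysosomal genes were described from a list of 48, all tested. In WT intranasal against WT control 2 were called, both lower, beside 1.01% of all genes. They were Lamtor4 at -1.12 (SE 0.23) and Lamtor1 at -0.87 (SE 0.20), each with edgeR adjusted p = 0.0467, and the list's median was 0.08. Both encode parts of the Ragulator complex, which anchors mTORC1 signalling to the lysosome. In the difference between genotypes Lamtor4 at 1.56 (SE 0.33) and Lamtor5 at 1.30 (SE 0.29) were called (edgeR adjusted p = 0.0487 for both). Of all genes 2.32% were called, and the list's median was -0.07. With the length and GC correction 0 of all genes were called in WT intranasal against WT control, and 1 for the difference between genotypes. In TG drinking water against TG control 35 of 48 were higher, with a median of 0.15 and none called. The smallest p there was that of Lipa, the lysosomal acid lipase, at 30.3 ± 5.42 CPM in TG drinking water and 21.1 ± 3.47 CPM in TG control (SD, n = 3 each), a log2 fold change of 0.53 (SE 0.17, edgeR adjusted p = 0.366).

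Fold changes of genes with and without the E-box core are given as a description. The 9 with CACGTG had medians of -0.01 in WT intranasal against WT control and 0.12 in TG intranasal against TG control. The 22 without it had -0.14 and 0.16. In TG drinking water against TG control the medians were 0.12 with the motif and 0.05 without it.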

How the data were processed

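RNA of 15 midbrain samples, 3 a group, was sequenced. The deposited counts are raw whole numbers of reads per gene and library, without normalization. Per the labels, a mirVana kit gave total RNA and libraries followed Illumina protocols. The aligner, counting program, genome build and strand setting: not given in the sources used here. A RefSeq table of GRCm38.p6 named 24374 of the 24454 gene IDs. Rows with an ID but no name, 80 in number, made up 0.148% to 6.24% of the counts by library and stayed in the totals. Columns were matched to groups by the description in the labels.

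The 40 genes, the other gene lists and the tests were chosen with earlier results of these data known. Genes named were all those of the list, by values per library or by range.

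In R 4.3.3 with edgeR 4.0.16, filterByExpr kept 15818 genes, TMM scaled the libraries (factors 0.888 to 1.12), and a quasi-likelihood model with a mean per group was fitted to all 15 libraries (common biological coefficient of variation 0.244). The quasi-likelihood F-test of edgeR gave p-values, adjusted by Benjamini-Hochberg over all genes tested. A call means an adjusted p under 0.05. CPM use library sizes after TMM adjustment. Transcript length and GC content came from the longest GENCODE transcript linked to RefSeq. The procedure was tested on simulated data.

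Alternatives were DESeq2 1.42.0, RLE or upper-quartile scaling, no filter or one of 5 CPM, a fit of the libraries compared alone, a replicate block, a term for the split of the libraries, a loess correction for length and GC content, an adjusted p of 0.1, and leaving out each library or both pituitary-rich ones (WT control 1 and TG control 1). Precision is limited by 3 libraries a group, and gene copies whose reads the counting could split are less certain. A result for 1 gene of the other lysosomal list is not reported here; it stayed in every fit and count.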

Additional observations from a re-analysis of the deposited data

Results flagged for a closer look

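These results differed between genotypes in their response to carnosine through the nose, as the log2 fold change in TG minus that in WT. For Atp6v1f, on the rotor of the pump, the difference was 1.29, and for Map1lc3a, of the autophagosome membrane, 1.41. Both passed the test of the difference itself as reported (edgeR adjusted p = 0.0487), but each was called in only 11 of 25 alternatives. With the length and GC correction Atp6v1f was at 0.12 (edgeR adjusted p = 0.709) and Map1lc3a at 0.63 (edgeR adjusted p = 0.110). With the split term the edgeR adjusted p was 0.296 for both.

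In 5 further genes every TG intranasal library lay above every TG control library and every WT intranasal library below every WT control library. With Atp6v1f, this held for 6 of the 40 genes, beside 1.41% of all genes tested, and the opposite pattern for 0 of the 40, beside 1.14%. The difference was 0.83 for Atp6v1g2, 0.76 for Atp6v1e1, 0.74 for Atp6v1d, 0.53 for Atp6v1h and 0.47 for Map1lc3b. With the length and GC correction it was 0.33, 0.13, 0.82, 0.20 and 0.35 in the same order. The separation was not itself tested, and the difference did not pass the test for any of the 5, with edgeR adjusted p values of 0.0504, 0.0636, 0.057, 0.082 and 0.116 in that order.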

How the results depend on the processing

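Counts of genes called are given for the 40 genes and then for all genes tested. In WT intranasal against WT control they were 1 and 159 as reported; DESeq2 gave 6 and 1442, an adjusted p under 0.1 gave 5 and 1340, no filter 3 and 534, upper-quartile scaling, the split term, the length and GC correction and leaving out both pituitary-rich libraries 0 and 0, and the compared groups alone 0 and 2. For the difference between genotypes they were 2 and 367; DESeq2 gave 12 and 2422, RLE scaling 4 and 706, an adjusted p under 0.1 gave 11 and 2880, no filter 6 and 1276, the stricter filter 7 and 1301, the split term and the compared groups alone 0 and 0, the length and GC correction 0 and 1, and leaving out both pituitary-rich libraries 2 and 669. In TG control against WT control they were 0 and 2; DESeq2 gave 3 and 416 and the compared groups alone 0 and 1.

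In TG drinking water against TG control they were 0 and 1; DESeq2 gave 1 and 187, an adjusted p under 0.1 gave 0 and 2, no filter 0 and 6, the split term 0 and 43, and leaving out both pituitary-rich libraries 0 and 188. In TG intranasal against TG control they were 0 and 1; DESeq2 gave 0 and 19, an adjusted p under 0.1 gave 0 and 2, no filter 0 and 5, the compared groups alone 0 and 0, and leaving out both pituitary-rich libraries 0 and 91. In TG intranasal against TG drinking water they were 0 and 0; DESeq2 gave 0 and 24 and the compared groups alone 0 and 1. The causes of these shifts were not tested.

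Leaving out 1 library at a time gave 0 to 5 of the 40 genes and 0 to 1293 of all genes in WT intranasal against WT control, 0 to 9 and 0 to 2389 for the difference between genotypes, and 0 to 8 of all genes in both comparisons of treated with control TG libraries.

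Same-numbered pairs of libraries from different groups had a median correlation of 0.0373, and 12 of 30 exceeded 0.1. Pairs with different numbers had a median of -0.0401, and 10 of 60 exceeded 0.1. Whether libraries of the same number share a step was not tested. With the replicate block the counts were 3 and 531 in TG control against WT control, 6 and 1587 in WT intranasal against WT control, 0 and 0 in TG intranasal against TG control, 0 and 2 in TG drinking water against TG control, and 9 and 2598 for the difference between genotypes.

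No gene called as reported changed sign under any setting, and none was called with the opposite sign. The length and GC correction turned the cathepsin median for the difference between genotypes to -0.23, against 0.08 as reported, past the spread between libraries of 0.124. Leaving out 1 library at a time, cathepsin medians were -0.09 to 0.19 over the 6 comparisons and those of the other 10 genes -0.20 to 0.22. Of 600 medians of a role under an alternative, 16 moved by more than the spread between libraries and 584 did not.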

Other observations

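Atp6v0c, the gene of the pump's proteolipid ring, had at most 7 counts in a library, while the other ring gene Atp6v0b averaged 214 CPM. The gene table also lists pseudogene copies of Atp6v0c, and whether they bear on its low count was not tested.

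Neutrophil markers summed to 10.7 to 37.0 CPM in TG drinking water, against 4.06 to 4.35 CPM in TG control, with 7 of 7 markers higher and none called. Ctsg, of the same cells, stood at 0.0402, 0.490 and 0.277 CPM in TG drinking water and at 0.499, 0.560 and 0.406 CPM in TG control.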
